A study of Rattus norvegicus with 30 samples.

Results

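Primary inner medullary collecting duct cells of the rat that had grown at 900 mosmol/kg were moved to medium of 300 mosmol/kg for 24 h and compared with cells that stayed at 900 mosmol/kg. Both groups were found by the sample titles, which name them by osmolality and challenge, and held 3 arrays each, 6 of the 30 arrays in the series. They are called returned and steady 900 here. The returned arrays carry the replicate numbers 1, 2 and 9 and the steady 900 arrays the numbers 1, 2 and 3. Cells kept at 300 or 600 mosmol/kg, again 3 arrays each, served as the other steady cultures, called steady 300 and steady 600. The remaining 6 groups followed increases from 300 to 600 or from 600 to 900 mosmol/kg. Their arrays entered the estimate of each gene's spread behind the tests, and the choice of its probe set. Their levels are used only where a gene or a gene list is placed among the 10 groups. All samples are primary cultures from rat renal inner medulla. The labels give no strain, genotype, age or sex. Nothing in them ties replicates to separate cultures or animals, so p-values reflect only how far these arrays spread, possibly for technical reasons. The epithelial label was borne out by Epcam, at 11.91 ± 0.03 (SD, n = 3) in steady 900, and the duct label by Aqp2, at 12.04 ± 0.07 there but at 5.61 ± 0.49 in steady 300. Every sample's treatment text lists cyclosporin A at 5 µM, a calcineurin inhibitor, although no title mentions it, so which cultures received it is not settled by the labels. The comparison asks what the cells do over a day when the medium around them becomes dilute again.

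Cells of the inner medulla live in a strongly hypertonic interstitium. To keep their volume they take up or make compatible organic osmolytes such as sorbitol, myo-inositol, betaine, taurine and glycerophosphocholine, and the transcription factor Nfat5, also known as TonEBP, drives many of the genes for this. When the medium turns dilute, water enters, the cells swell, and they release chloride, potassium and organic osmolytes through channels that include those built from LRRC8 proteins. Over hours, genes that served the hypertonic state are turned down. Principal cells of the duct also respond to vasopressin, whose receptor Avpr2 raises cyclic AMP and, through it, the water channel Aqp2.

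Values are expression levels on the log2 scale, where a difference of 1 is a doubling. A gene is called changed when the adjusted p of limma's moderated test is under 0.05 (Benjamini-Hochberg over 14506 genes), and differences are log2 changes with the fit's standard error after ±, while levels carry the SD over 3 arrays. Precision is limited by having 3 arrays in each group. After 24 h at 300 mosmol/kg, 2795 genes were higher than in steady 900, 19.3% of those tested, and 2678 were lower, 18.5%, so that 37.7% changed in either direction. Of these, 299 genes were at least 2-fold higher (2.06%) and 294 at least 2-fold lower (2.03%). The 3 returned and the 3 steady 900 arrays did not overlap in 5362 of the 5473 changed genes, but they also did not overlap in 1963 genes that were not called. Replicate arrays of the returned and steady groups correlated at 0.9966 to 0.9976, and the median SD of a gene was 0.0923 in the returned and 0.0890 in the steady 900 arrays.

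A day at 300 mosmol/kg did not bring the cultures to the expression levels of cultures kept there. Against steady 300, 2953 genes were higher (20.4%) and 3227 lower (22.2%), 42.6% in all, with 604 at least 2-fold higher (4.16%) and 673 at least 2-fold lower (4.64%). The median absolute difference over all genes was 0.203 between returned and steady 300, 0.181 between returned and steady 900, and 0.164 between returned and steady 600. Steady 900 and steady 300 themselves differed by a median of 0.203. Mean levels of leukocyte markers were 5.90 to 5.96 in the returned and 8.40 to 8.49 in the steady 300 arrays. Those of fibroblast markers were 6.75 to 6.83 and 8.79 to 8.80. The part of such cells in the differences from steady 300 was not tested. A further set of genes lay outside all steady cultures: 1209 genes were higher in the returned cells than in each of steady 300, 600 and 900 (8.33%), and 920 were lower than in each (6.34%), every one of the 3 differences passing the test. These are called above or below the steady range. The contrasts against the steady cultures share the returned arrays, so their counts are not independent of each other. The returned cells held the highest mean of all 10 groups in 2204 genes (15.2%) and the lowest in 2455 (16.9%).

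**Figure D1:**
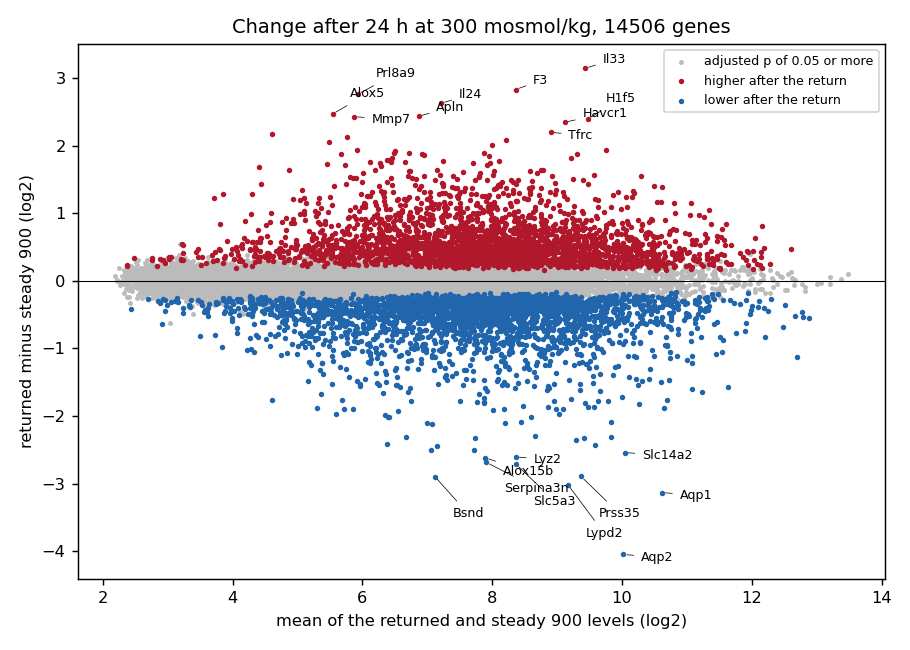
Difference between returned and steady 900 (vertical, log2) against the mean level of the gene in both groups (horizontal, log2) for 14506 genes, each point 1 gene, red where higher and blue where lower after the return, grey where the adjusted p was 0.05 or more. The 10 largest rises and falls are named. Aqp2 lies lowest, at a fall of 4.05, and Il33 highest, at a rise of 3.14.

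Genes of the hypertonic state fell. Of the 10 measured tonicity-responsive and organic osmolyte genes, 8 were lower than in steady 900, 1 was higher and 1 was not called, against 18.5% lower among all genes, and the list's median change was −0.85 beside −0.02 over all genes. Slc5a3, the sodium-coupled myo-inositol transporter, read 6.95, 7.16 and 6.93 in the returned arrays and 9.71, 9.81 and 9.66 in steady 900. The 2 groups lay far apart, a 6.56-fold difference with a fall of 2.71 ± 0.09 (adjusted p = 1.13e-18). Its level still lay 1.14 ± 0.09 above steady 300, where it averaged 5.87 ± 0.16 (SD, n = 3; adjusted p = 7.05e-12). Akr1b1 encodes aldose reductase, the sorbitol-producing enzyme, and read 12.15, 12.12 and 12.12 after the return and 13.26, 13.31 and 13.21 in steady 900. It fell by 1.13 ± 0.06 (2.19-fold, adjusted p = 2.86e-14) and stopped about midway, 1.20 ± 0.06 above steady 300.

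Nfat5 itself fell. It read 8.62, 8.71 and 8.56 in the returned arrays and 9.86, 10.05 and 9.72 in steady 900. The fall was 1.25 ± 0.11 (2.37-fold, adjusted p = 2.1e-10), with no overlap, as in 5362 of the 5473 changed genes. Against steady 300, at 8.70, 8.87 and 8.86, the difference was −0.18 ± 0.11, with a 95% interval of −0.40 to 0.04 (adjusted p = 0.197). Among the 10 groups the returned cells had the lowest mean Nfat5. Hspa4l, a tonicity-induced Hsp110 family chaperone, fell by 1.19 ± 0.10 to 8.30 ± 0.07 and remained 1.48 ± 0.10 above steady 300. S100a4, a calcium-binding protein, fell by 0.90 ± 0.12 (adjusted p = 5.64e-07) and stayed 2.47 ± 0.12 above steady 300.

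Both Slc6a6 and Slc38a2 ended below every steady culture. Slc6a6, the taurine transporter, read 9.62, 9.54 and 9.53 in the returned arrays against 10.35, 10.37 and 10.39 in steady 900 and 10.72, 10.68 and 10.72 in steady 300. It fell by 0.81 ± 0.06 from steady 900 (adjusted p = 1.44e-11), lay 1.14 ± 0.06 below steady 300 (adjusted p = 2.08e-15), and had its lowest mean of all 10 groups after the return. Slc38a2, a system A transporter of neutral amino acids, fell by 0.78 ± 0.08 and lay 0.32 ± 0.08 below steady 300 (adjusted p = 0.00256). The one member that rose was Gpcpd1, the enzyme that breaks down the osmolyte glycerophosphocholine. It read 6.42, 6.77 and 6.51 after the return and 5.11, 5.06 and 4.95 in steady 900, a rise of 1.53 ± 0.13 (2.88-fold, adjusted p = 7.48e-11), which brought it within 0.09 ± 0.13 of steady 300 (95% interval −0.17 to 0.35). Sord, sorbitol dehydrogenase, differed from steady 900 by 0.06 ± 0.13 (95% interval −0.21 to 0.33). The betaine transporter gene Slc6a12 was not measured here.

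The collecting duct program fell together and stayed well above the level of cells kept at 300. Of 23 principal cell genes, 17 were lower than in steady 900 and 1 was higher, with a median change of −0.89, against 18.5% lower and 19.3% higher among all genes. The 1 that rose, the transcription factor Tfcp2l1 (0.41 ± 0.14, adjusted p = 0.0263), was not called without steady 900 replicate 1 or 3 or returned replicate 2 or 9. Against steady 300, 16 of the 23 were higher and 1 was lower, beside 20.4% and 22.2% of all genes. The mean level over the list ran from 7.29 to 7.35 in the returned arrays, from 8.40 to 8.42 in steady 900, from 6.12 to 6.22 in steady 300 and from 7.63 to 7.85 in steady 600. The returned arrays thus lay between those of steady 300 and steady 600 and overlapped neither.

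Aqp2, the vasopressin-regulated water channel, made the largest fall of all genes. It read 8.19, 7.93 and 7.86 after the return and 12.13, 12.00 and 12.01 in steady 900, a 16.6-fold difference (log2 change −4.05 ± 0.20, adjusted p = 2.38e-15). In steady 300 it read 6.07, 5.09 and 5.66, so the returned cells kept 5.23-fold more. Those steady 300 values spread widely and lie about the array medians of 5.63 to 5.76, so this fold is imprecise. Avpr2, the vasopressin V2 receptor, read 7.58, 7.53 and 7.68 against 9.63, 9.61 and 9.60, a fall of 2.02 ± 0.12 (4.05-fold, adjusted p = 8.13e-14). Slc14a2, the urea transporter of the terminal duct, read 8.83, 8.76 and 8.72 against 11.36, 11.33 and 11.25 and fell by 2.54 ± 0.13 (5.82-fold, adjusted p = 8.34e-15). It had started 6.24 above steady 300 and kept a difference of 3.69 ± 0.13 from it.

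Aqp3, a water channel of the basolateral membrane, fell by 1.82 ± 0.17 from 11.17 ± 0.15 to 9.34 ± 0.15 (adjusted p = 4.58e-10). Bsnd, the barttin subunit of ClC-K chloride channels, read 5.54, 5.60 and 5.86 against 8.55, 8.48 and 8.66 and fell by 2.90 ± 0.13 (7.45-fold, adjusted p = 5.96e-16), ending 0.83 ± 0.13 above steady 300. Aqp1, a water channel of proximal tubule and thin descending limb, read 9.20, 8.97 and 8.97 against 12.26, 12.16 and 12.13 and fell by 3.13 ± 0.13 (8.77-fold, adjusted p = 3.96e-17). Aqp1 is not a principal cell gene, and it was among the bright genes of steady 900. Of the 12 loop of Henle and proximal tubule markers, 7 fell (58.3%, against 18.5% of all genes) and 0 rose. Lower members included Cldn10, a claudin (−1.91 ± 0.10), and Bst1 (−1.17 ± 0.09). Umod, uromodulin of the thick ascending limb, stayed at 4.25 to 4.27 in the group means of returned, steady 900 and steady 300.

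**Figure D2:**
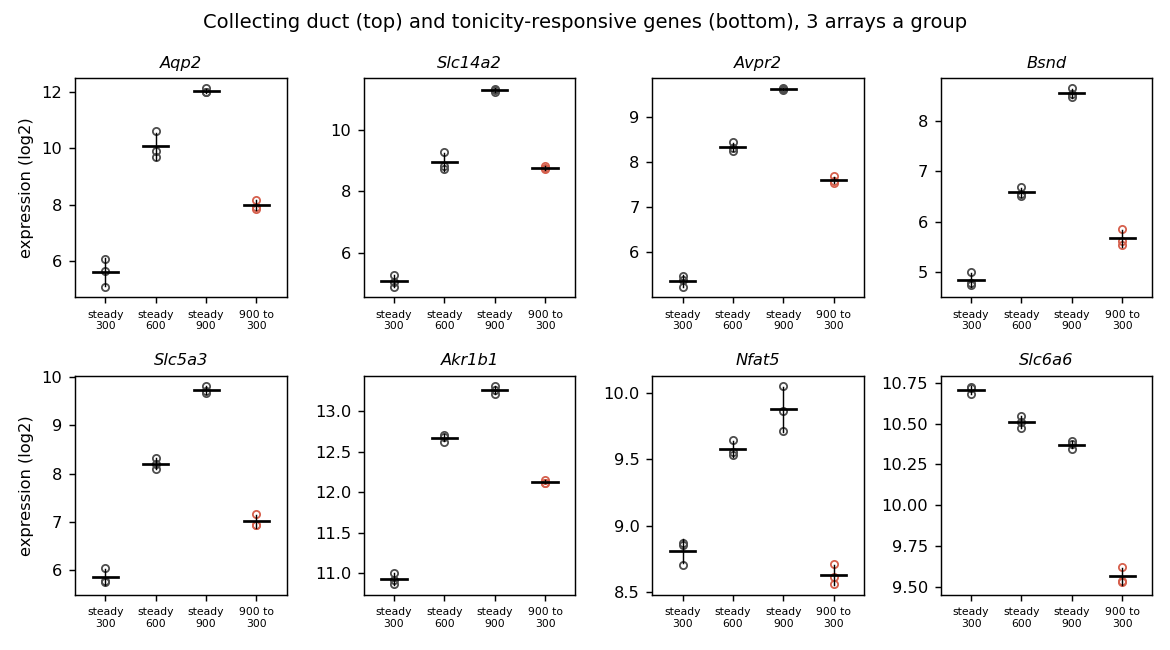
Expression (log2, vertical) of 4 collecting duct genes (top) and 4 tonicity-responsive genes (bottom) in steady 300, steady 600, steady 900 and returned cultures, each circle 1 array, with the mean as a bar and the SD as a vertical line. The returned arrays of Aqp2, Slc14a2, Avpr2, Bsnd, Slc5a3 and Akr1b1 lie between steady 300 and steady 900, while those of Slc6a6 lie below all 3 steady cultures.

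Of 14 general epithelial markers, 5 fell (35.7%, against 18.5% of all genes), 2 rose (14.3%, against 19.3%) and 7 were not called, with a median change of −0.04. Krt18, a keratin of simple epithelia, rose by 0.52 ± 0.07 and Epcam, an epithelial adhesion molecule, differed by 0.13 ± 0.06 (adjusted p = 0.108), at 12.04 ± 0.03 against 11.91 ± 0.03. Lower members were Muc1, a membrane mucin (−1.77 ± 0.12, adjusted p = 2.52e-12), Cdh16, the kidney-specific cadherin (−0.84 ± 0.07), and Elf3, an epithelial ETS factor (−0.61 ± 0.07). Of 18 tight junction and keratin genes, 6 fell (33.3%, against 18.5% of all genes) and 5 rose (27.8%, against 19.3%). Of these 18, 7 are also in another list, as are 5 of the 14 epithelial markers, so such counts are not separate evidence. Of 14 intercalated cell markers, 4 fell (28.6%, against 18.5% of all genes) and 1 rose (7.14%, against 19.3%). The 1 that rose was Slc26a4, the pendrin anion exchanger, at 6.86, 7.01 and 7.16 after the return against 5.41, 5.48 and 5.20 (1.64 ± 0.14), which was still 2.31 ± 0.14 below steady 300. Atp6v1b1, a proton pump subunit of intercalated cells, fell by 0.81 ± 0.12 from the low level of 5.05 ± 0.12.

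Mitosis genes rose without exception. All 19 measured mitosis and G2/M genes were higher after the return, by 0.95 to 2.08 with a median of 1.51, against 19.3% higher among all genes. All 19 were also above each steady culture (8.33% among all genes). In all 19 the returned cells had the highest mean of the 10 groups (15.2% among all genes). Of the 19 DNA replication and S phase genes, 18 rose, with a median of 0.83, 18 lay above the steady range, and 19 had their highest mean in the returned cells. The exception to the call was E2f1, a transcription factor of the G1 to S transition, at a difference of 0.30 ± 0.15 (adjusted p = 0.129).

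To show what the promoters of these genes have in common, the 250 bases before the annotated start were searched for CCAAT, the box bound by NF-Y, on both strands. Promoters were taken from RefSeq on the GRCr8 assembly, which held one for 11950 of the 14506 genes and for 15 of the 19 mitosis genes. CCAAT stood in 11 of those 15 (73.3%) and in 9 of 15 replication genes (60%), against 35.6% of all 11950 promoters. The box is not special to these lists, since 17 of 21 promoters of unfolded protein response genes (81%) and 11 of 14 of cholesterol and fatty acid synthesis genes (78.6%) held it too. Of the 8 tonicity genes with a promoter, 1 held TGGAAA, the core of the element bound by Nfat5 (12.5%, against 17% of all). A match is a description of letters in this window and does not show binding. 4 mitosis promoters are shown. They belong to the named genes Ttk and Prc1, to Top2a, which had the most matches of the others, and to Ccnb2, the first by name of 3 genes tied at 3 matches (with Cdk1 and Kif20a). Each is printed 5′ to 3′ on the strand of the gene with CCAAT or its reverse complement ATTGG in capitals. They lie at chr8:93634389-93634638 (plus strand, Ttk), chr1:143659231-143659480 (plus, Prc1), chr10:84473094-84473343 (minus, Top2a) and chr8:79981659-79981908 (minus, Ccnb2), in GRCr8.
Ttk: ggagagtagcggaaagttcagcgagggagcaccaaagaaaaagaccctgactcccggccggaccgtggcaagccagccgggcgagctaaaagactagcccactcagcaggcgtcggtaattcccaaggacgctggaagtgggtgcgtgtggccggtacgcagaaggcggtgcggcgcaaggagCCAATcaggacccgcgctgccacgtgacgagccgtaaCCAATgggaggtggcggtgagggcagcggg
Prc1: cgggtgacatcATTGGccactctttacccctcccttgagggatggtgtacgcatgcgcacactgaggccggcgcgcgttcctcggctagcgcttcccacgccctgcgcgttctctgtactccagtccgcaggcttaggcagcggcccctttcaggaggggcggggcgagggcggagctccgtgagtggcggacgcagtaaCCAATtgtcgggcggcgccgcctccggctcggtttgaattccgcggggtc
Top2a: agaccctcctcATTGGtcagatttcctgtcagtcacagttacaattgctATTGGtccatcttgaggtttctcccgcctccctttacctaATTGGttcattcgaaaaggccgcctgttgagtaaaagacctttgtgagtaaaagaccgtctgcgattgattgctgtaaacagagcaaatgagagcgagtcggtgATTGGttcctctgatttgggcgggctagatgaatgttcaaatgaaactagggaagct
Ccnb2: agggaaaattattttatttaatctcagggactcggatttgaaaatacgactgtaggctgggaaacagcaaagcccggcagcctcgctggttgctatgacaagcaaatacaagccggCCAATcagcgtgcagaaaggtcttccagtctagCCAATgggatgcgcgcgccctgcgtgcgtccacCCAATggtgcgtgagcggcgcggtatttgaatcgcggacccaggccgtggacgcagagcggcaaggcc

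Ttk, a kinase of the spindle checkpoint whose promoter holds 2 of these boxes, read 8.15, 8.12 and 8.10 after the return and 6.21, 6.47 and 6.39 in steady 900. It rose by 1.77 ± 0.10 (3.4-fold, adjusted p = 7.58e-14), and the steady 300 and steady 600 means of 6.02 and 5.46 were lower still. Prc1, which bundles microtubules at the midzone in cytokinesis, read 10.02, 10.01 and 9.99 against 8.40, 8.57 and 8.51, a rise of 1.51 ± 0.10 (2.85-fold, adjusted p = 7.4e-13). For both genes every returned array was above every steady 900 array, and arrays did not overlap in 5362 of the 5473 changed genes. Top2a, the topoisomerase of dividing cells with 4 matches, rose by 1.20 ± 0.17 and Ccnb2, a mitotic cyclin with 3 matches, by 1.11 ± 0.11.

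Aurkb, the chromosomal passenger kinase, rose most of the list. It read 9.22, 9.39 and 9.15 against 7.17, 7.17 and 7.18 in steady 900, a rise of 2.08 ± 0.11 (4.22-fold, adjusted p = 2.3e-14). It exceeded steady 300 by 2.29 ± 0.11 and steady 600, at a mean of 6.55, as well. Ska1, a kinetochore protein outside the list, rose by 2.06 ± 0.13 from 4.46 ± 0.13 to 6.52 ± 0.08 and is among the genes farthest above the steady range. H1f5, a linker histone, rose by 2.39 ± 0.13 (adjusted p = 1.46e-14), but histone genes share near-identical sequence and its probe set may read several of them.

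Among replication genes Rfc4, a subunit of the clamp loader, read 8.91, 8.71 and 8.91 against 7.19, 7.32 and 7.11 and rose by 1.63 ± 0.13 (3.1-fold, adjusted p = 4.91e-11). Tyms, thymidylate synthase, read 10.20, 10.25 and 10.13 against 8.75, 8.84 and 8.69 and rose by 1.43 ± 0.09 (2.7-fold, adjusted p = 1.21e-13). Neither gene's arrays overlapped, as in 5362 of the 5473 changed genes. Cdc45, a part of the replicative helicase, rose by 1.25 ± 0.11 and Ccne1, the cyclin of S phase entry, by 1.04 ± 0.09. The mean level over the mitosis list was 8.82 to 8.93 in the returned arrays, 7.31 to 7.48 in steady 900 and 6.86 to 6.87 in steady 300. Over the replication list it was 8.95 to 8.99, 7.96 to 8.11 and 7.08 to 7.10.

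Growth machinery rose with them. Of 20 ribosome biogenesis and nucleolar genes, 17 rose (85%, against 19.3% of all genes) and 0 fell, with a median of 0.60. Of these genes 15 lay above the steady range (75%, against 8.33%). In 17 the returned cells had the highest mean of the 10 groups, against 15.2% of all genes. Fbl, the fibrillarin methyltransferase of box C/D particles, read 9.60, 9.63 and 9.76 against 8.64, 8.69 and 8.69, a rise of 0.99 ± 0.09 (adjusted p = 2.31e-10). Nop58, of the same particles, rose by 0.96 ± 0.09 and Gar1, of box H/ACA particles, by 1.11 ± 0.13. Nop56 rose by 0.84 ± 0.10 and was 0.29 ± 0.10 above steady 300 (adjusted p = 0.0178). That call is lost under 3 of 16 alternatives, at an adjusted p of up to 0.0627. Among them are leaving out returned replicate 2 (adjusted p = 0.0581) and leaving out steady 300 replicate 3 (adjusted p = 0.0622). Of 24 oxidative phosphorylation genes, 9 rose (37.5%, against 19.3% of all genes) and 1 fell (4.17%, against 18.5%), with a median of 0.13. Without returned replicate 1 only 5 were called higher. Ndufv1, of complex I, rose by 0.46 ± 0.08 and Cox7a2, of complex IV, by 0.48 ± 0.12, while Sdha, of complex II, fell by 0.31 ± 0.08.

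**Figure D3:**
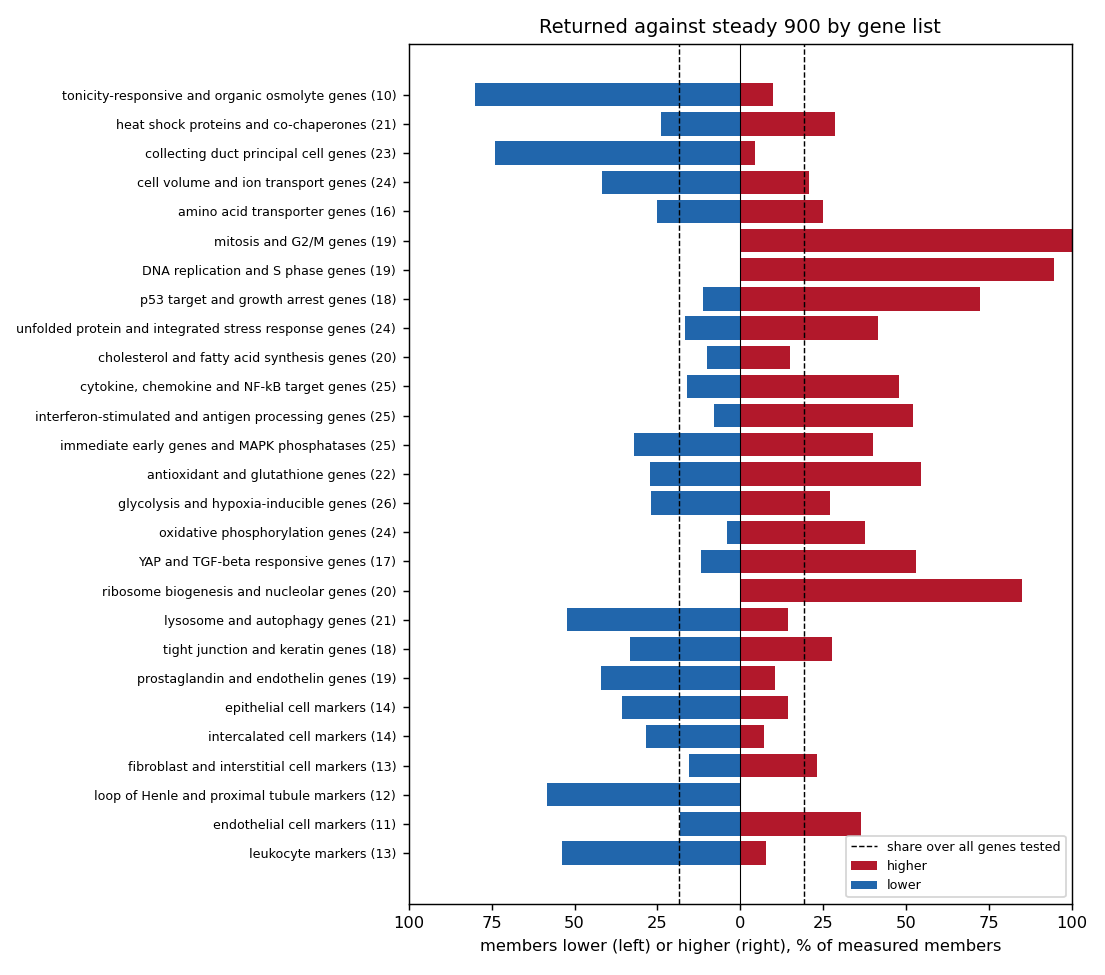
Share of measured members of each of 27 gene lists that were lower (blue, to the left) or higher (red, to the right) in returned than in steady 900 cells, in percent, with the number of measured members in parentheses and the shares over all genes tested as dashed lines. The mitosis bar reaches 100 on the right, and the collecting duct and tonicity bars reach farthest to the left.

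Genes of growth arrest rose at the same time. Of 18 p53 target and growth arrest genes, 13 rose and 2 fell, with a median of 0.53, against 19.3% higher and 18.5% lower among all genes. Above the steady range lay 5 of the 18 (27.8%, against 8.33%). Fas, the death receptor, read 7.47, 7.61 and 7.52 against 5.69, 5.95 and 5.69, a rise of 1.76 ± 0.13 (3.39-fold, adjusted p = 5.6e-12), and differed from steady 300 by −0.14 ± 0.13 (95% interval −0.40 to 0.13). Cdkn1a, the p21 inhibitor of cyclin-dependent kinases, read 10.89, 10.92 and 10.88 against 10.01, 10.02 and 9.92 (0.92 ± 0.09, adjusted p = 2.38e-09). It differed from steady 300 by 0.11 ± 0.09. Bax, a pro-apoptotic BCL2 relative, rose by 0.77 ± 0.08 and was above steady 300 by 0.42 ± 0.08. Sesn1, a stress sensor upstream of mTORC1, was 1 of the 2 that fell, by 1.13 ± 0.07 from 7.64 ± 0.04 to 6.51 ± 0.03. Inhibitor and division genes were thus high in the same cultures, and arrays of bulk RNA do not show whether in the same cells.

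Of 13 measured leukocyte markers, 7 fell (53.8%, against 18.5% of all genes), 1 rose and 5 were not called against steady 900, with a median change of −0.53. Below the steady range lay 7 of the 13 (53.8%, against 6.34% of all genes). Lyz2, a lysozyme of macrophages and other myeloid cells, read 6.92, 7.27 and 6.99 after the return, 9.83, 9.61 and 9.56 in steady 900 and 11.40, 11.46 and 11.39 in steady 300. It fell by 2.61 ± 0.11 (6.09-fold, adjusted p = 2.14e-16) and was 20.5-fold lower than in steady 300. Csf1r, the macrophage colony-stimulating factor receptor, read 5.29, 5.56 and 5.20 against 7.41, 7.30 and 7.29, a fall of 1.99 ± 0.11 (adjusted p = 1.94e-14). Itgam, the CD11b integrin chain, fell by 1.89 ± 0.13 to 4.77 ± 0.04. Fewer cells of a type and less RNA per cell cannot be told apart in these bulk arrays.

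2 more genes of myeloid cells were named by their distance below the steady range. Cybb, the catalytic subunit of the phagocyte oxidase, read 5.76, 6.06 and 5.97 against 8.44, 8.39 and 8.31 and fell by 2.45 ± 0.14 (5.45-fold, adjusted p = 7.84e-14). Cd36, a scavenger receptor, fell by 1.88 ± 0.16 from 6.24 ± 0.08 to 4.36 ± 0.27. Not all markers moved so: Cd68 was at 8.47 ± 0.05 against 8.25 ± 0.05 (adjusted p = 0.16), and Cd74, the invariant chain of class II molecules, rose by 0.45 ± 0.11. Vsig4, a receptor of resident macrophages, averaged 11.14 in steady 300, but 3.53 in the returned and 3.63 in steady 900 cells, near the bottom of the scale. The mean level over the 13 markers was 5.90 to 5.96 in the returned arrays, 6.59 to 6.70 in steady 900, 7.14 to 7.21 in steady 600 and 8.40 to 8.49 in steady 300. At 24 h after the step from 600 to 900 it was 5.98 to 6.12, so low values were not confined to the return.

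Of 13 fibroblast markers, 3 rose (23.1%) and 2 fell (15.4%), near the 19.3% and 18.5% of all genes. Their mean levels were 6.75 to 6.83 in the returned and 6.76 to 6.79 in steady 900 arrays, which overlapped, against 8.79 to 8.80 in steady 300. Postn, periostin, rose by 1.01 ± 0.13 to 5.10 ± 0.09 and Vim, vimentin, by 0.76 ± 0.09 to 11.17 ± 0.02, while Col3a1, a fibrillar collagen, fell by 0.54 ± 0.08. All 3 remained below steady 300. Of 11 endothelial markers, 4 rose (36.4%, against 19.3% of all genes) and 2 fell (18.2%, close to the 18.5% of all genes). Kdr, the main VEGF receptor, rose by 0.77 ± 0.11 and Emcn, endomucin, fell by 0.73 ± 0.07. The part of such cells in the changes of other lists was not tested.

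**Figure D4:**
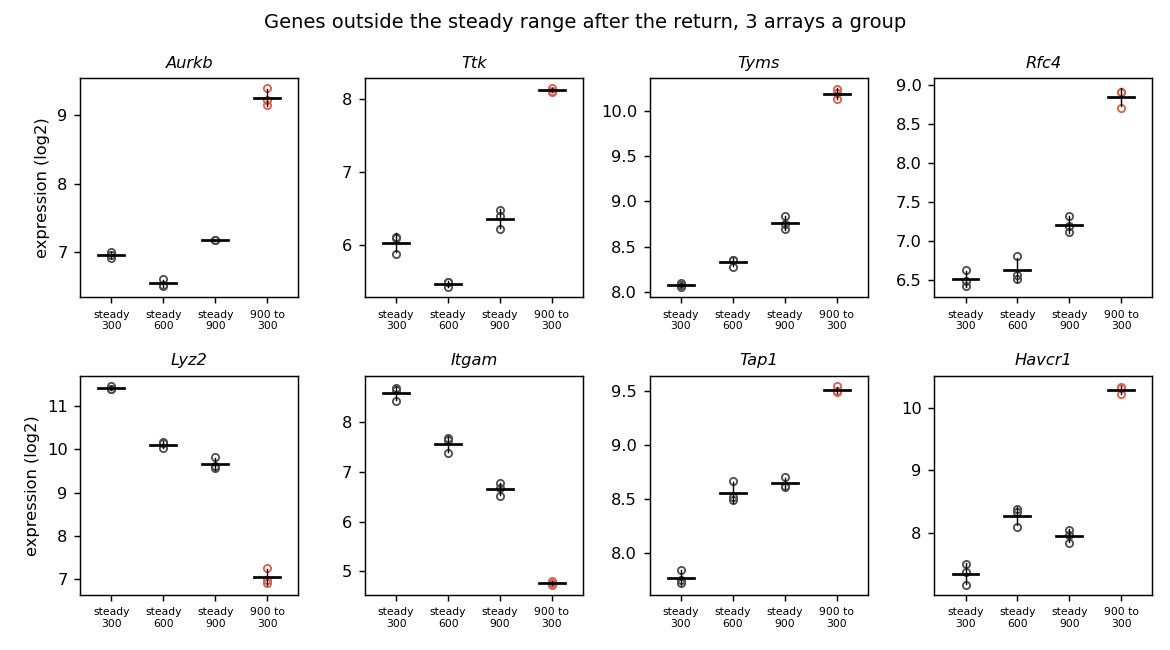
Expression (log2, vertical) of 8 genes outside the steady range in steady 300, steady 600, steady 900 and returned cultures, each circle 1 array, with the mean as a bar and the SD as a vertical line. Returned arrays lie above all steady arrays for Aurkb, Ttk, Tyms, Rfc4, Tap1 and Havcr1 and below them for Lyz2 and Itgam.

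Interferon-related genes stayed far above the level of cells kept at 300. Of 25 interferon-stimulated and antigen processing genes, 13 rose (52%, against 19.3% of all genes) and 2 fell against steady 900, with a median of 0.23. Only 1 was called lower when any one of the 3 returned or the 3 steady 900 arrays was left out. Above the steady range lay 11 (44%, against 8.33%), and 24 of the 25 were higher than in steady 300 (96%, against 20.4%). The mean over the list was 9.32 to 9.34 in the returned arrays, 8.92 to 9.00 in steady 900 and 7.14 to 7.36 in steady 300. Tap1, which moves peptides into the endoplasmic reticulum for class I molecules, read 9.54, 9.49 and 9.50 against 8.70, 8.61 and 8.62 (0.87 ± 0.08, adjusted p = 1.98e-10). Tap2, its partner, rose by 0.74 ± 0.08, and Usp18, a brake on interferon receptor signalling, by 1.22 ± 0.15 to 9.10 ± 0.09, against 5.77 ± 0.09 in steady 300. Gbp2, a guanylate-binding protein, rose by 0.78 ± 0.08 but was the 1 gene lower than in steady 300, by −0.72 ± 0.08.

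Cytokine and NF-kB target genes had the opposite relation to steady 300. Of 25, 12 rose (48%, against 19.3% of all genes) and 4 fell (16%, against 18.5%) from steady 900, with a median of 0.38. Yet 22 were lower than in steady 300 (88%, against 22.2%). Lif, a cytokine of the interleukin 6 family, read 8.83, 8.86 and 8.97 against 7.56, 7.29 and 7.42, a rise of 1.46 ± 0.08 (adjusted p = 2.48e-14), and was 1.17 ± 0.08 below steady 300 on the same scale. Il1rn, the interleukin 1 receptor antagonist, rose by 1.63 ± 0.11 to 7.54 ± 0.08, against 9.12 ± 0.02 in steady 300. Csf1, the growth factor for macrophages, rose by 1.26 ± 0.11 to 9.73 ± 0.04, against 11.98 ± 0.03. Cxcl1, a neutrophil chemokine, rose by 1.09 ± 0.10 to 8.60 ± 0.13, against 11.62 ± 0.08. Leukocyte and fibroblast markers were also lower than in steady 300, 12 of 13 in each list, and their part in this difference was not tested.

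The mean level of YAP and TGF-beta responsive genes moved part of the way to steady 300. It was 8.70 to 8.80 in steady 900, 9.11 to 9.21 in the returned and 10.23 to 10.25 in the steady 300 arrays. Of 17, 9 rose (52.9%, against 19.3% of all genes) and 2 fell, with a median of 0.44, while 13 were lower (76.5%, against 22.2%) and 0 higher than in steady 300. The 2 that fell lay below the steady range (11.8%, against 6.34% of all genes). Ccn1, a matricellular YAP target, read 10.60, 10.57 and 10.58 against 9.19, 9.32 and 9.33 and rose by 1.31 ± 0.08 (2.47-fold, adjusted p = 5.49e-14). Ccn2, its relative, rose by 1.29 ± 0.07 and Thbs1, thrombospondin 1, by 0.84 ± 0.06. Edn1, endothelin 1, which inhibits salt and water uptake in the duct, read 8.52, 8.71 and 8.58 against 7.36, 7.44 and 7.51 (1.17 ± 0.11, adjusted p = 1.99e-09). All 4 stayed below steady 300, by −1.34, −0.71, −0.91 and −1.09 respectively. Of 19 prostaglandin and endothelin genes, 4 of which are also in another list, 8 fell (42.1%, against 18.5%) and 2 rose (10.5%). Abcc4, an exporter of prostaglandins and cyclic nucleotides, fell by 1.52 ± 0.07 (2.87-fold), Ptges, the inducible prostaglandin E synthase, by 1.33 ± 0.14, and Ptger1, a prostaglandin E2 receptor, by 1.06 ± 0.12.

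Of 24 cell volume and ion transport genes, 10 fell (41.7%, against 18.5% of all genes) and 5 rose (20.8%, close to the 19.3% of all genes), with a median of −0.15. Fxyd2, the gamma subunit that modulates the sodium pump, read 9.17, 9.13 and 9.12 against 10.87, 10.85 and 10.84 and fell by 1.71 ± 0.08 (3.28-fold, adjusted p = 1.86e-15). Fxyd5, another FXYD protein, rose by 1.12 ± 0.07 from 7.46 ± 0.05 to 8.58 ± 0.10. Atp1b1, the beta subunit of the pump, fell by 0.74 ± 0.07, and Stk39, the SPAK kinase that activates sodium-chloride cotransporters, by 0.81 ± 0.08. Fxyd5 lay 0.22 ± 0.07 below steady 300 (adjusted p = 0.0148), a call lost without returned replicate 1 (adjusted p = 0.0854) or 2 (adjusted p = 0.0550).

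The subunits of the swelling-activated anion channel did not move as one. Lrrc8a, the subunit every such channel needs, read 8.27, 8.24 and 8.33 after the return and 8.48, 8.47 and 8.51 in steady 900. It fell by 0.21 ± 0.08 (adjusted p = 0.0324), a call lost when steady 900 replicate 1, 2 or 3 or returned replicate 1 or 2 is left out (adjusted p = 0.0546 to 0.10). Of the other subunits, chosen here after their values were seen, Lrrc8b rose by 0.53, Lrrc8c by 0.36 and Lrrc8e by 0.36, and Lrrc8d differed by 0.10 and was not called. Of 16 amino acid transporter genes, 4 rose (25%) and 4 fell (25%), not far from the 19.3% and 18.5% of all genes. Without steady 900 replicate 2 or returned replicate 1 or 9, 2 were called lower. Slc1a5, a glutamine transporter, rose by 1.34 ± 0.08 to 9.24 ± 0.06 and Slc7a5, the light chain of system L, by 0.96 ± 0.11, whereas Slc6a9, a glycine transporter, fell by 0.88 ± 0.08. Slc7a11, the cystine-glutamate exchanger, rose by 0.66 ± 0.12. Its excess of 0.34 ± 0.12 over steady 300 (adjusted p = 0.0239) was not called under 4 of 16 alternatives. Among them were leaving out steady 300 replicate 1 (adjusted p = 0.102) or 2 (adjusted p = 0.0533) or returned replicate 2 (adjusted p = 0.0844).

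Of 21 chaperones, 6 rose (28.6%) and 5 fell (23.8%), not far from the 19.3% and 18.5% of all genes, with a median of 0.05. Hspa2, an Hsp70, read 7.39, 7.43 and 7.37 against 9.47, 9.58 and 9.39 and fell by 2.08 ± 0.09 (4.24-fold, adjusted p = 3.5e-16). Hsph1, an Hsp110 nucleotide exchange factor, fell by 1.30 ± 0.08 and Cryab, a small heat shock protein, by 0.62 ± 0.08. The groups did not overlap for any of the 3, as in 5362 of the 5473 changed genes. Hspd1 and Hspe1, the mitochondrial chaperonin pair, rose by 0.34 ± 0.08 and 0.52 ± 0.08, and Chordc1, an Hsp90 co-chaperone, by 0.75 ± 0.10. Hspd1 and Hspe1 fall outside the naming rule and were picked after their values were seen.

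Of 24 unfolded protein and integrated stress response genes, 10 rose (41.7%, against 19.3% of all genes) and 4 fell (16.7%, against 18.5%), with a median of 0.11. Sdf2l1, a partner of endoplasmic reticulum Hsp70, read 8.81, 8.82 and 8.83 against 6.97, 6.99 and 6.81, a rise of 1.90 ± 0.12 (3.72-fold, adjusted p = 2.31e-13), and was above steady 300 by 1.68 ± 0.12. Creld2, a protein of the same compartment, rose by 0.82 ± 0.08 and Pdia6, a disulfide isomerase, by 0.65 ± 0.07. Atf3, a stress-induced transcription factor, rose by 0.73 ± 0.07 and was below steady 300 by −0.39 ± 0.07. Of 22 antioxidant and glutathione genes, 12 rose (54.5%, against 19.3% of all genes) and 6 fell (27.3%, against 18.5%), with a median of 0.32. In 11 of the 22 the returned cells had the highest mean of the 10 groups, against 15.2% of all genes. Nqo1, a quinone reductase, read 9.82, 9.65 and 9.78 against 8.54, 8.58 and 8.52 (1.20 ± 0.09, adjusted p = 8.49e-12). Gstp1, a glutathione transferase, rose by 1.24 ± 0.08 and Txnrd1, thioredoxin reductase, by 1.08 ± 0.08, whereas Gsr, glutathione reductase, fell by 1.05 ± 0.07.

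Of 21 lysosome and autophagy genes, 11 fell (52.4%, against 18.5% of all genes) and 3 rose (14.3%, against 19.3%), with a median of −0.23, and 6 lay below the steady range (28.6%, against 6.34%). Glb1, lysosomal beta-galactosidase, read 9.20, 9.20 and 9.13 against 10.23, 10.19 and 10.14 and fell by 1.01 ± 0.07 (adjusted p = 6.33e-13). Ulk1, the kinase that starts autophagy, fell by 0.92 ± 0.12, Atp6v1h, a subunit of the proton pump, by 0.92 ± 0.07 and Ctsd, cathepsin D, by 0.44 ± 0.07. Leukocytes also express lysosome genes, and their markers fell in the same arrays, by a median of 0.53; their part in these changes was not tested. Of 26 glycolysis and hypoxia-inducible genes, 7 rose (26.9%, against 19.3% of all genes) and 7 fell (26.9%, against 18.5%), with a median of 0.03. Without returned replicate 9, 4 were called lower and the median was −0.01. Pfkfb3, the enzyme that makes the activator of phosphofructokinase, read 8.11, 8.12 and 8.20 against 10.07, 10.08 and 9.99 and fell by 1.90 ± 0.10 (3.74-fold, adjusted p = 4.42e-15) to within 0.12 ± 0.10 of steady 300.

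Hk1, the hexokinase at the head of the pathway, fell by 0.61 ± 0.07 and Pkm, pyruvate kinase, by 0.36 ± 0.06, and Adm, adrenomedullin, rose by 0.82 ± 0.10. Of 25 immediate early genes and MAPK phosphatases, 10 rose (40%, against 19.3% of all genes) and 8 fell (32%, against 18.5%), with a median of 0.06. Without returned replicate 1, 5 were called lower. Fos fell by 0.96 ± 0.11 and Dusp1, a phosphatase of MAP kinases, by 0.83 ± 0.09, while Junb rose by 0.77 ± 0.09. Of 20 cholesterol and fatty acid synthesis genes, 3 rose (15%) and 2 fell (10%), shares below those of all genes, with changes between −0.37 and 0.41. The number called higher was 5 to 8 under 4 of the alternatives. Fdps, an enzyme of the isoprenoid branch, rose by 0.37 ± 0.10 and Sqle, squalene epoxidase, fell by 0.37 ± 0.09.

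**Figure D5:**
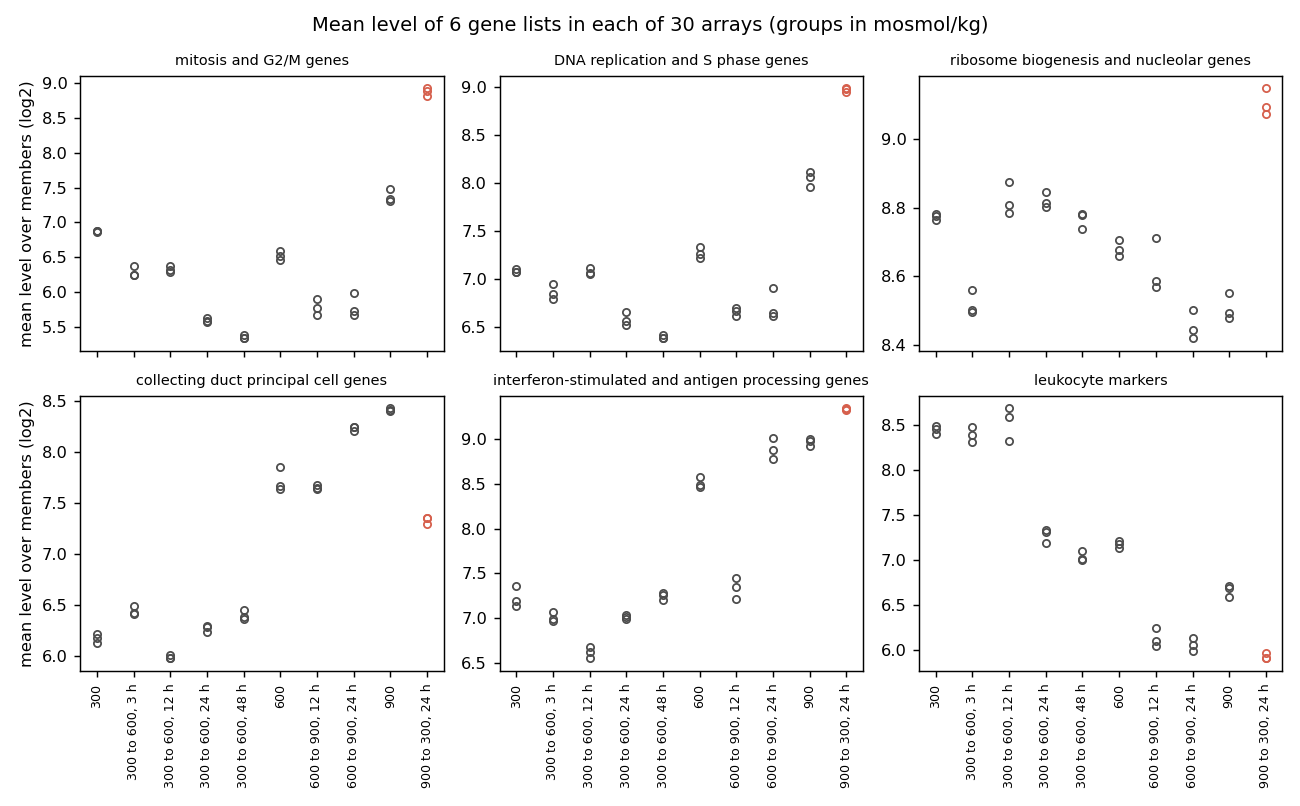
Mean level over the measured members (log2, vertical) of 6 gene lists in each of 30 arrays, by group (horizontal, osmolality in mosmol/kg and time), each circle 1 array, returned arrays in red. The 3 returned arrays are the highest of all for mitosis, replication, ribosome biogenesis and interferon-related genes. Collecting duct genes lie between 6.12 and 8.42 across the steady 300 and steady 900 arrays, with the returned arrays from 7.29 to 7.35.

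The largest rises outside the lists included an alarmin, a clotting factor and an injury marker. Il33, an alarmin of epithelial and stromal nuclei, read 10.90 to 11.10 after the return against 7.72 to 7.98, a rise of 3.14 ± 0.22 (8.83-fold, adjusted p = 3.43e-12), and was 0.90 ± 0.22 above steady 300 (adjusted p = 0.00138). F3, tissue factor, which starts coagulation, read 9.75, 9.88 and 9.68 against 6.87, 7.0 and 6.96 and rose by 2.83 ± 0.11 (7.11-fold). Havcr1, the injury marker KIM-1 of tubule cells, read 10.22, 10.32 and 10.33 against 7.96, 8.05 and 7.84, a rise of 2.35 ± 0.14 (5.08-fold, adjusted p = 1.35e-13). Its level was above steady 300, at 7.34 ± 0.17, and steady 600, at 8.26, and was the highest mean of the 10 groups. Tfrc, the transferrin receptor, rose by 2.20 ± 0.13 from 7.80 ± 0.12.

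Il24, a cytokine of the interleukin 10 family, rose by 2.63 ± 0.09 to 8.53 ± 0.22, 0.75 ± 0.09 below steady 300 at 9.28 ± 0.05. Alox5, which makes leukotriene precursors, rose by 2.47 ± 0.13, Apln, the peptide ligand of the apelin receptor, by 2.43 ± 0.13 and Mmp7, matrilysin, by 2.43 ± 0.20. Apln and Mmp7 differed from steady 300 by −0.27 ± 0.13 (adjusted p = 0.101) and −0.27 ± 0.20 (adjusted p = 0.305). Prl8a9, of the prolactin family, read 7.25, 7.39 and 7.30 against 4.72, 4.37 and 4.56, a rise of 2.76 ± 0.17 (6.78-fold), and was 3.46 ± 0.17 above steady 300. Its family is large in the rat, and related members may share its probes. Dhrs9, a retinol dehydrogenase, rose by 2.01 ± 0.14 to 9.01 ± 0.05, and both genes were above each steady culture.

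The largest falls outside the lists ran from high levels in steady 900. Lypd2, a small protein of the Ly6 family, read 7.67, 7.73 and 7.58 after the return against 10.75, 10.61 and 10.67, a fall of 3.02 ± 0.16 (8.1-fold). Prss35, a serine protease relative, read 7.93, 7.99 and 7.85 against 10.87, 10.78 and 10.80 and fell by 2.90 ± 0.11 (7.44-fold). Serpina3n, a protease inhibitor, fell by 2.69 ± 0.14 and Alox15b, a lipoxygenase, by 2.62 ± 0.17. All 4 were still above steady 300, by 3.01 ± 0.16, 2.29 ± 0.11, 1.42 ± 0.14 and 1.36 ± 0.17 respectively.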

How the data were processed

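Total RNA of the cultures was hybridised to Affymetrix Rat Gene 1.0 ST arrays, 1 array per sample. The authors deposited log2 values from RMA, per the submitters' processing notes, whose version and settings were not given in the sources used here. RMA subtracts background, scales arrays to each other and summarises probes, and it flattens changes at both ends of the scale. The table held 29170 probe sets, with array medians of 5.63 to 5.76. Probe sets with 1 gene symbol (15310) were used, a gene being its brightest probe set over the 30 arrays, which gave 14506 genes. Of the 551 distinct listed symbols, those without such a probe set were not measured.

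Groups were fitted with limma 3.58.1 in R 4.3.3, with 1 mean per group over all 30 arrays, eBayes and Benjamini-Hochberg adjustment over 14506 genes at 0.05. SDs are over 3 arrays. The fit was tested on simulated data for returned against steady 900 with 14506 genes: it called 100 of 100 changes of 1 (log2) and 78 of 100 of 0.5, with 8 false calls. The simulation changed far fewer genes than were called in the data. Its noise was drawn independently for each gene and array, so these rates need not hold for the data. Genes, gene lists (21 functional, 6 of cell type markers) and tests were chosen with earlier results of these data known. Named genes are a fixed set of 10, the 10 largest rises and the 10 largest falls without overlap, the 4 members of each list (3 of marker lists) with the smallest adjusted p, and the 5 genes farthest above and below the steady range; among the largest changes and the genes outside the range, provisional symbols (LOC, RGD, MGC) were dropped. List members outside this rule were named after their values were seen. Promoters cover 250 bases before the RefSeq start. Alternatives were other normalizations (quantile, median centring, cyclic loess), a filter on dim genes (percentile 30), averaging the probe sets of a gene, eBayes with trend and robust settings, array weights, a replicate block, only the compared arrays, and leaving out arrays. No genome position is given for probe sets, since the build of the array annotation is not stated, and the labels name no scan or extraction batch.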

Additional observations from a re-analysis of the deposited data

How the results depend on the processing

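Counts over all genes kept within 1.5 times of their reported value under every alternative run, except the genes below the steady range, which numbered 920 and came to 1394 under array weights; the cause was not tested. Of the 54 counts of list members higher or lower than steady 900, 15 moved by over 1.5 times under at least 1 alternative, in 31 of 864 values. Under array weights, members called higher came to 8 for cholesterol genes (from 3), 6 for epithelial markers (from 2), 4 for prostaglandin and endothelin genes (from 2) and 2 for leukocyte markers (from 1, also when the fit held just the 6 compared arrays). Cholesterol genes called higher came to 5 with cyclic loess or the filter on dim genes and to 6 with only the compared arrays, and amino acid transporters called lower to 2 (from 4) with the replicate block. Under array weights, members called lower came to 4 for YAP and TGF-beta genes and for endothelial markers (each from 2) and 2 for oxidative phosphorylation genes (from 1). With the filter on dim genes, members called lower were 2 intercalated (from 4) and 1 fibroblast marker (from 2), since fewer genes were tested. Of the 27 list medians, 22 moved by more than their spread between replicate arrays under at least 1 alternative, in 75 of 432 values. The median of 1 list, glycolysis genes, changed sign, from 0.03 to −0.03 without arrays numbered 3 and 9 and to −0.01 without returned replicate 9, and just below 0 under array weights. The largest shift of a list median, by 0.60, was that of the loop of Henle and proximal tubule markers with the filter on dim genes. List counts against steady 300 and outside the steady range were not run under the alternatives. Leaving out 1 array at a time gave 2433 to 2577 genes higher and 2342 to 2476 lower than steady 900, and 703 to 865 below the steady range. The numbers 1 and 2 are shared by the returned and steady 900 arrays. Deviations from the group means correlated at 0.00311 for the arrays numbered 1 and at 0.238 for those numbered 2. For returned replicate 2 with steady 900 replicates 1 and 3 the values were −0.0246 and −0.219. With so few arrays these values cannot show whether same-numbered arrays share a culture or batch. With the replicate number as a block, 2642 genes were higher and 2622 lower than steady 900. Of the 3832 values of the 120 named genes under the alternatives, 3796 kept their side of the threshold, 32 lost the call and 4 gained it. In 0 did the sign change where the main or the alternative fit made a call. Some differences called in neither fit did change sign, such as that of Ptger1 from steady 300, which ran from −0.13 to 0.21. Of these 120 genes, only Lrrc8a lost its call against steady 900. Against steady 300 Fxyd5, Slc7a11, Sesn1, Fos, Sdha, Nop56 and Atp6v1h lost theirs under at least 1 alternative. Genes named outside this set were not run individually. Among them Tfcp2l1, seen through the count of its list, lost its call against steady 900 under 4 alternatives. Nfat5, Atp1b1 and Apln gained a call against steady 300 under array weights, at −0.19 (adjusted p = 0.0489), −0.14 (adjusted p = 0.0172) and −0.30 (adjusted p = 0.0202). Among the 4836 dimmest genes, 200 were called higher and 245 lower, against 1408 and 1346 of the 4835 brightest; the cause was not tested.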
